A study of Mus musculus with 9 samples.

Results

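The genes described here are those of mitochondrial dynamics and of the maintenance of mitochondrial DNA (mtDNA). The genes fall into 3 groups: Mfn1, Mfn2 and Opa1 for fusion, Dnm1l, Fis1 and Mff for fission, and Tfam, Polg, Polg2 and Tfb2m for mtDNA maintenance. The genes were chosen by name, and every probe set annotated with 1 of these symbols alone was used on all 9 arrays. That gave 10 of 18193 genes and 25 of 45037 probe sets.

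The study measured polysome-bound mRNA, the mRNA loaded with ribosomes, in maturing mouse oocytes, using Affymetrix 430 2.0 arrays. Germinal vesicle (GV) oocytes, held in prophase I, were taken at 0 h of human chorionic gonadotropin (hCG), the ovulatory signal. Metaphase I (MI) oocytes were taken at 4 h, and metaphase II (MII) oocytes, the stage at which the egg waits for sperm, at 14 h. Mice of every group had received the gonadotropin PMSG 48 h before hCG, so no group came from an unstimulated ovary. Strain, genotype and age were not given in the sources used here. Each stage had 3 arrays. The titles and stage fields of the second group read MI, while its description field reads pGVB, which is not explained there. The labels call the arrays biological replicates of independent sample sets but give no number of animals or oocytes, so the p-values measure the spread between these samples.

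Mitochondria fuse and divide throughout the life of a cell. Mfn1 and Mfn2 join the outer membranes of neighbouring mitochondria and Opa1 joins the inner ones. Dnm1l (also called Drp1) is a cytosolic GTPase that receptors such as Mff bring to the outer membrane, where it constricts and divides the organelle. In the nucleoid, Tfam packages mtDNA and starts its transcription together with Tfb2m, and Polg with its accessory subunit Polg2 copies it. The oocyte supplies nearly all the mitochondria and mtDNA of the embryo, and its mitochondria are small and round with few cristae.

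Values are intensities on the linear scale as deposited. An array's median was 12.39 to 13.22, and 53.1% to 54.8% of its probe sets lay below 16, so values of that size were taken as near background. The arrays' 95th percentiles ran from 1126.5 (MII 3) to 1458.3 (MI 1), and the number of arrays limits the precision. All 14 oocyte markers had a mean of at least 100 in some stage. Their summed intensity was 57475 to 69924 on the GV and MI arrays and 34249 to 41828 on the MII arrays. Of 16 markers of granulosa, cumulus and theca cells, 3 reached a stage mean of 100 (Cyp11a1, Star and Inhba). Their sum was 344.3 to 1443.9, highest on MI 3, where 3 of the 16 lay below 16 against 7 to 12 on the other arrays. The follicle-stimulating hormone receptor Fshr had stage means of 3.96, 8.21 and 3.33. Those of the cumulus marker Tnfaip6 were 3.77, 66.4 and 9.65, with 45.8 to 77.4 on the MI arrays. Of the 16, 10 were higher at MI than at GV in the log2 changes described below. From MI to MII 1 of them, Tnfaip6, was called lower (limma adjusted p = 0.0222) and 0 higher. Of 8 blood, immune and endothelial markers, only Pecam1 reached 100, and their sum was 120.2 to 889.0. The part of these differences in the results below was not tested.

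In stage means, ± is the SD of 3 arrays. Differences are given as log2 changes of intensity + 16, and folds likewise, which understates the change of a dim probe set. They were tested with the moderated test of limma in 1 model over all arrays, and a probe set was called, or passed, when its p adjusted by Benjamini-Hochberg over all 45037 probe sets was under 0.05. A lower signal can come from less mRNA per oocyte or from fewer ribosomes on it, and these cannot be told apart here. The mRNA was amplified and the array medians were alike (12.39 to 13.22). A signal is therefore relative to the other polysome-bound mRNA on its array and gives no total amount. MI was compared with GV, and MII with each of them, so the 3 comparisons share arrays and are not independent. The comparisons show how the ribosome-bound mRNA of each gene stood before, during and at the end of meiotic maturation.

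Of the 25 probe sets, 19 had a mean of at least 100 over the 9 arrays, and each of the 10 genes reached 100 in at least 1 stage with its brightest probe set. Between GV and MI no member passed with limma, and 0 of all probe sets did (0% higher and 0% lower). Of the 25 member probe sets, 3 had an unadjusted limma p under 0.05, against 2789 of all 45037. The smallest adjusted p of a member in that comparison was 0.604. Between MI and MII, 0 member probe sets were called higher, beside 1.57% of all, and 1 lower, beside 3.85%. At an unadjusted limma p under 0.05 there were 5 of the 25, against 7451 of all 45037. Between GV and MII, 1 was called higher, beside 3.75% of all, and 1 lower, beside 5.23%. Here 6 of the 25 had an unadjusted limma p under 0.05, against 8943 of all 45037. Among probe sets with a mean of at least 100, the called shares were 4.29% higher and 12.3% lower from MI to MII, and 10.9% higher and 16.5% lower from GV to MII. The moderated F test over the 3 stages called 2 of the 25, beside 7.03% of all. The member counts were near what the shares of all probe sets give for 25 probe sets. The 2 that passed belong to Opa1 and Fis1 and are among the 19 bright ones. Counted over those 19, the called shares from MI to MII and from GV to MII were smaller than among all bright probe sets. That difference was not tested.

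**Figure D1:**
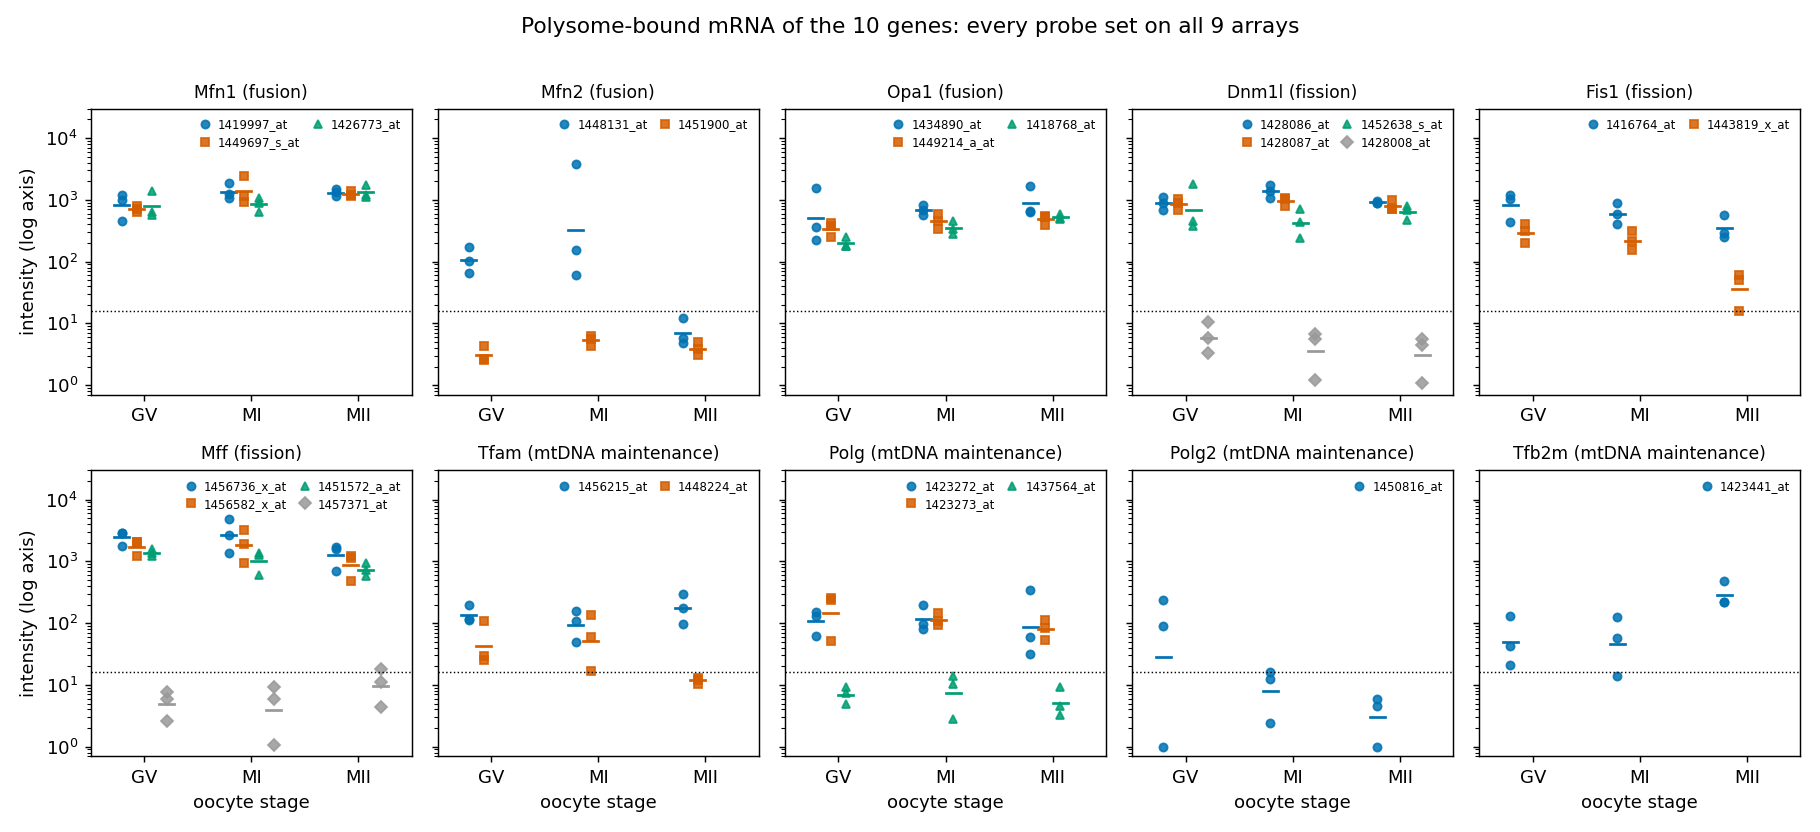
Intensity (log axis) of every probe set of the 10 genes in GV, MI and MII oocytes. Each point is 1 array, the short bar is the geometric mean of the 3 arrays of a stage, and the dotted line marks an intensity of 16. Opa1 1418768_at is highest and Fis1 1443819_x_at lowest at MII, Mfn2 1448131_at has 1 MI array at 3747, and Tfb2m stands above its other stages on all 3 MII arrays.

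Opa1 is the inner-membrane GTPase of fusion, which also holds cristae junctions tight. Its probe set 1418768_at had intensities of 176, 249 and 180 on GV arrays 1, 2 and 3. They were 277, 332 and 457 at MI and 514, 599 and 496 at MII. The 3 stages did not overlap, with GV lowest and MII highest. The stage means were 201.9 ± 40.96, 355.1 ± 92.15 and 536.3 ± 54.94. From GV to MII, intensity + 16 rose 2.56-fold (log2 change 1.35, SE 0.23, 95% confidence interval 0.83 to 1.88, limma adjusted p = 0.01). The call held in each of the 9 fits that left out 1 array. Neither step passed alone: the log2 change was 0.76 from GV to MI (adjusted p = 0.604) and 0.60 from MI to MII (adjusted p = 0.223). With a pseudocount of 1 in place of 16 the GV to MII change was 1.42 and the adjusted p 0.092.

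The other Opa1 probe sets pointed the same way without passing. Probe set 1449214_a_at read 376, 414 and 254 at GV, 457, 593 and 333 at MI, and 554, 531 and 388 at MII, and its GV and MII arrays overlapped. Its GV to MII change was 0.49 (SE 0.28, 95% confidence interval -0.15 to 1.13, adjusted p = 0.417). Probe set 1434890_at ranged from 227 to 1549 within GV alone, and its change was 0.80 (SE 0.68, adjusted p = 0.645). The log2 values of 1418768_at correlated over the 9 arrays at r = 0.52 with 1449214_a_at and at r = 0.25 with 1434890_at. The rise of 1 probe set was thus not seen to the same degree by all. The annotation gives 1418768_at and 1449214_a_at the same source sequence, so their shared direction is not from separate sequences.

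Mfn1, the mitofusin of the outer membrane that tethers mitochondria most strongly, gave bright signal at every stage. Probe set 1449697_s_at read 806, 702 and 629 at GV, 924, 2465 and 1173 at MI, and 1165, 1369 and 1204 at MII. All MI and all MII arrays lay above all GV arrays. The changes were 0.95 from GV to MI (SE 0.34, adjusted p = 0.714) and 0.80 from GV to MII (SE 0.34, adjusted p = 0.244). Array MI 2 was the highest of its stage, and without it the GV to MII adjusted p was 0.0433. Probe sets 1419997_at and 1426773_at had GV to MII changes of 0.66 and 0.75 (adjusted p = 0.427 and 0.346), with overlapping arrays. The annotation gives 1419997_at and 1449697_s_at the same source sequence, so this pair is not from separate sequences. Their log2 values correlated at r = 0.76 over the 9 arrays, whereas those of 1449697_s_at and 1426773_at did at r = 0.04. All 3 probe sets thus read higher at MII than at GV by 0.66 to 0.80, and none passed. They differed on the step: 1426773_at gave 0.10 from GV to MI and 0.64 from MI to MII, whereas 1419997_at gave 0.70 and -0.04, the latter turning to 0.19 with quantile normalization.

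Mfn2, the second mitofusin, which also ties mitochondria to the endoplasmic reticulum, showed the largest fitted difference of the set and the least even replicates. Probe set 1448131_at read 173, 64.3 and 102 at GV, 157, 3747 and 60.1 at MI, and 12, 5.70 and 4.82 at MII. The MII arrays were all near background and below every array of the other stages, while MI 2 was far above the rest. The MI to MII change was -3.98 (SE 1.27, 95% confidence interval -6.91 to -1.04, adjusted p = 0.142), and the GV to MII change was -2.38 (adjusted p = 0.379). Neither passed with all arrays. Without MI 2 the GV to MII change was again -2.38 with an adjusted p of 0.0199, and the MI to MII change was -2.30 with an adjusted p of 0.0592. With a pseudocount of 1 the MI to MII change was -5.37 and its adjusted p 0.0494. The second Mfn2 probe set, 1451900_at, stayed between 2.55 and 6.31 on all arrays and gave no measure of the gene.

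The mRNAs of most similar course to Mfn2 over the 9 arrays, by Pearson's r of log2 values among 8569 genes, were Rpusd3 (r = 0.96), Tctex1d1 (0.96) and Dctn5 (0.95). Without MI 2 these were 0.97, 0.95 and 0.89. The genes were picked for their r over all 9 arrays, so these values are no separate check. All of these values describe 9 arrays of 3 stages and carry no test.

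Dnm1l is the GTPase that divides mitochondria. Probe set 1428086_at read 697, 1125 and 902 at GV, 1380, 1751 and 1066 at MI, and 877, 876 and 973 at MII. MI was the highest stage, with each MI array above all MII arrays, and 1 of the MI arrays below the highest GV array. The changes were 0.61 from GV to MI (SE 0.24, adjusted p = 0.76) and -0.59 from MI to MII (SE 0.24, adjusted p = 0.269). Between GV and MII the change was 0.03 with a 95% confidence interval of -0.53 to 0.58. Probe set 1428087_at read 693 to 1037 at GV, 801 to 1076 at MI and 700 to 1008 at MII. Its GV to MII change was -0.11 (95% confidence interval -0.64 to 0.42, adjusted p = 0.877), which was 0.08 with quantile normalization. These intervals are among the narrowest of the 25 probe sets, and changes beyond about 0.64 in either direction lie outside both. Probe set 1452638_s_at varied more, from 374 to 1790 within GV, and 1428008_at stayed between 1.10 and 10.5. The 3 bright Dnm1l probe sets did not vary together (r = -0.02 to 0.10 over the 9 arrays).

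Fis1, a small outer-membrane anchor that binds Dnm1l adaptors, had the only called decrease. Probe set 1443819_x_at read 401, 317 and 201 at GV, 316, 212 and 154 at MI, and 61.0, 50.3 and 15.7 at MII. The GV and MI arrays overlapped, and all 3 MII arrays lay below them. The stage means were 306.3 ± 100.5, 227.3 ± 82.43 and 42.34 ± 23.67. From GV to MII, intensity + 16 fell 5.71-fold (log2 change -2.51, SE 0.42, 95% confidence interval -3.48 to -1.54, limma adjusted p = 0.0101). This call held in each of the 9 fits that left out 1 array. From MI to MII, intensity + 16 fell 4.30-fold (log2 change -2.10, 95% confidence interval -3.07 to -1.13, limma adjusted p = 0.0295). That second call was lost without GV 2 (0.0521), MI 1 (0.0894), MI 2 (0.0891), MII 2 (0.06) or MII 3 (0.0689), and with a pseudocount of 1 (0.0547).

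The other Fis1 probe set, 1416764_at, read 1028, 436 and 1184 at GV, 879, 592 and 403 at MI, and 291, 254 and 561 at MII. MII held the lowest values, but its highest array overlapped both other stages. Its changes were -0.75 from MI to MII (adjusted p = 0.532) and -1.19 from GV to MII (SE 0.47, 95% confidence interval -2.29 to -0.09, adjusted p = 0.209). Both probe sets therefore read lower at MII and only 1 passed. The suffix _x_at is Affymetrix's mark for probe sets in which some probes may also match other transcripts, and its part in the decrease was not tested. The same limit holds for 1456736_x_at and 1456582_x_at of Mff, and for the brightest probe sets of Chchd6 and Phb2, all described below.

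Mff, the outer-membrane receptor that recruits Dnm1l, read lower at MII than at GV in all 3 of its bright probe sets. Probe set 1451572_a_at read 1363, 1204 and 1568 at GV, 1262, 1349 and 610 at MI, and 942, 726 and 581 at MII. Probe set 1456736_x_at read 2893, 1791 and 2922 at GV, 4891, 2698 and 1372 at MI, and 1605, 704 and 1734 at MII. In each, all MII arrays lay below all GV arrays, and the MI arrays spread over both. The GV to MII changes were -0.88 (SE 0.33, 95% confidence interval -1.65 to -0.12, adjusted p = 0.173) and -0.97 (SE 0.52, adjusted p = 0.384). Probe set 1456582_x_at gave -0.99 (adjusted p = 0.374), but its log2 values followed those of 1456736_x_at at r = 0.999, so the pair counts as 1 reading. None of the 3 passed with all arrays, and 1451572_a_at had an adjusted p of 0.0485 without MI 3. The fourth, 1457371_at, lay between 1.08 and 18.1 and was near background.

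Tfam, the packaging protein of the nucleoid, was read by a pair of probe sets that disagreed. Probe set 1456215_at read 196, 111 and 115 at GV, 157, 50.4 and 107 at MI, and 98.2, 300.0 and 177 at MII. Its MI to MII change was 0.77 (SE 0.47, adjusted p = 0.517), and the stages overlapped. Probe set 1448224_at read 25.1, 107 and 28.9 at GV, 134, 59.2 and 16.9 at MI, and 13.1, 11.9 and 10.5 at MII. All its MII arrays were lower than all others and near background, and its MI to MII change was -1.37 (SE 0.60, adjusted p = 0.307). No direction could be given for Tfam from these arrays.

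Polg, the mtDNA polymerase, was measured near the bright limit. Probe set 1423272_at read 151, 131 and 62.8 at GV, 197, 98.1 and 79.3 at MI, and 59.5, 31.7 and 343 at MII. The highest and the lowest of its 9 values were both MII arrays, and the GV to MII change was -0.19 (95% confidence interval -1.89 to 1.51). Probe set 1423273_at read 235, 50.6 and 254 at GV, 91.7, 144 and 109 at MI, and 84.7, 52.9 and 112 at MII. Its GV to MII change was -0.78 (adjusted p = 0.532), and without GV 2, the low array of its stage, it was -1.44 (adjusted p = 0.0433). The remaining probe set, 1437564_at, stayed between 2.76 and 13.7.

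Polg2, the accessory subunit that holds the polymerase on its template, had 1 probe set, 1450816_at. It read 241, 90.4 and 1 at GV, 16.5, 12.3 and 2.46 at MI, and 4.53, 5.92 and 1 at MII. Only GV 1 and GV 2 stood clearly above background, and the third array of every stage was the lowest of its stage. The GV to MII change was -1.97 (SE 0.86, adjusted p = 0.256), and without GV 3 it was -3.07 (adjusted p = 0.012).

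Tfb2m, which melts mtDNA promoters for the mitochondrial RNA polymerase, had the largest positive difference of the set. Its probe set 1423441_at read 43.0, 21 and 133 at GV, 57.2, 126 and 14.1 at MI, and 217, 217 and 476 at MII. All 3 MII arrays lay above all arrays of the other stages, which overlapped each other. The means were 65.67 ± 59.32, 65.64 ± 56.3 and 303.3 ± 149.7. The changes were 2.14 from MI to MII (SE 0.69, 4.41-fold, 95% confidence interval 0.54 to 3.74, adjusted p = 0.148) and 2.12 from GV to MII (adjusted p = 0.118). Neither passed, and over the 9 fits without 1 array the adjusted p of the GV to MII change was 0.0736 to 0.306. The mRNAs most like it over the 9 arrays were Sall4 (r = 0.97), Zfp760 (0.97) and Adpgk (0.95), again as a description without a test.

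**Figure D2:**
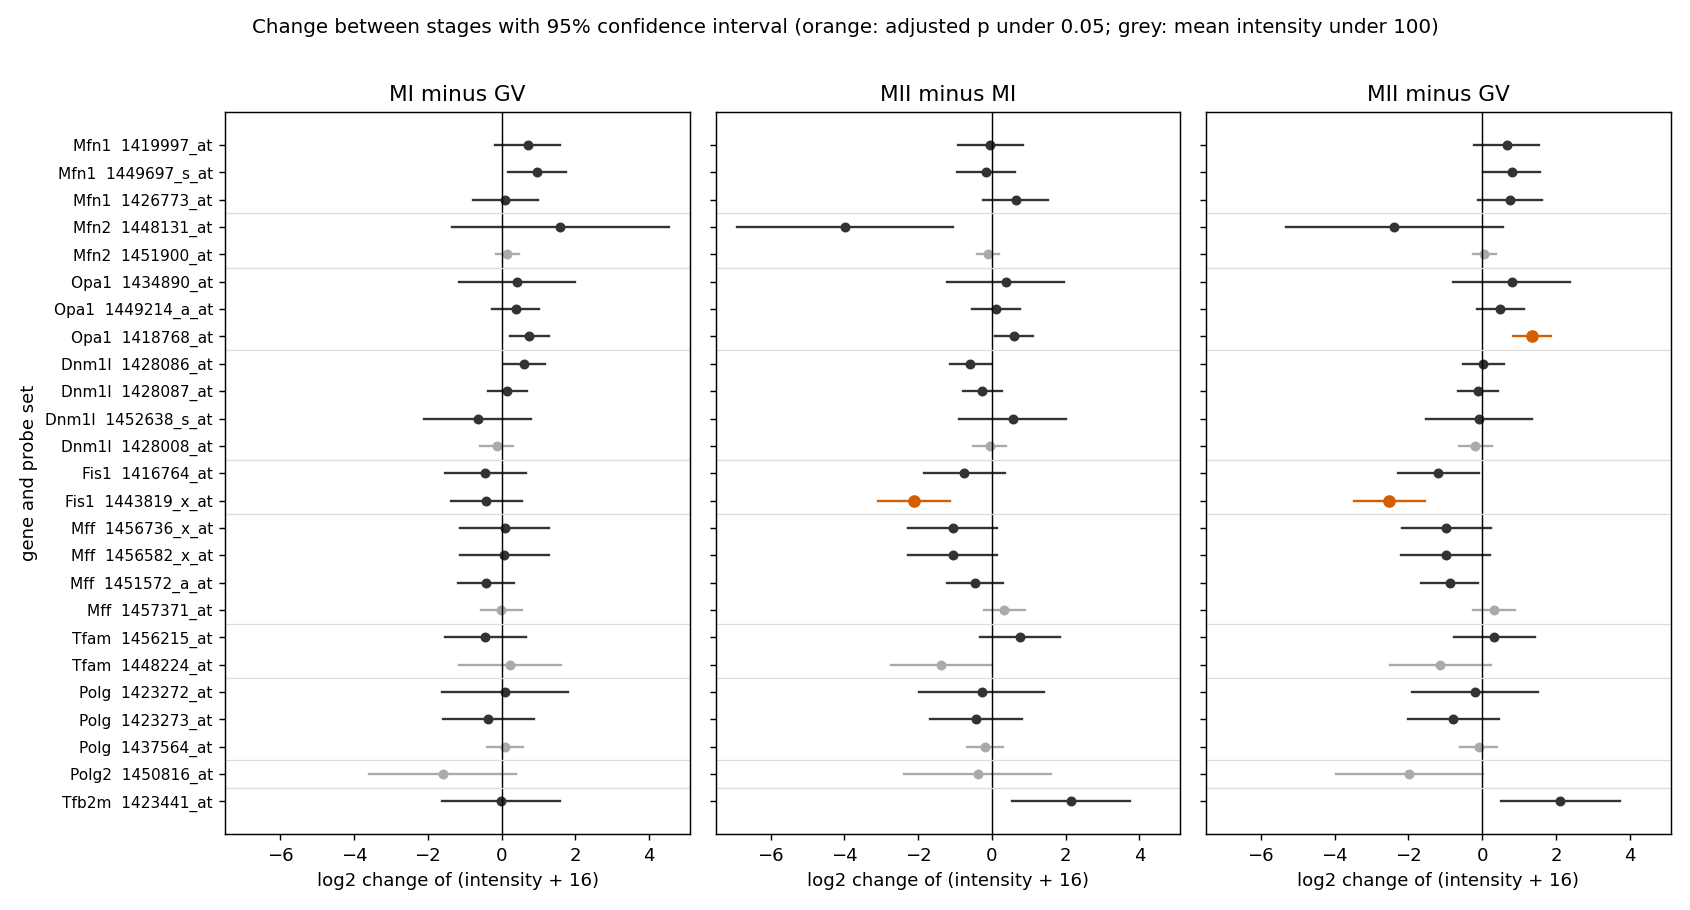
Log2 change of intensity + 16 between stages for each of the 25 probe sets, with its 95% confidence interval. Orange marks an adjusted p under 0.05 and grey a mean intensity under 100. Opa1 1418768_at passes from GV to MII and Fis1 1443819_x_at from MI to MII and from GV to MII, while the intervals of Mfn2 and Tfb2m are wide.

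Across the set, 2 probe sets had all MI arrays above all GV arrays, and none had them all below, beside 5.98% and 5.39% of all probe sets. From MI to MII, 3 lay above and 4 below without overlap, beside 10.5% and 11.6%. From GV to MII, 3 lay above (1 each of Mfn1, Opa1 and Tfb2m) and 6 below (3 of Mff and 1 each of Mfn2, Fis1 and Tfam), beside 12.7% and 13.1%. The _x_at pair of Mff, which counts as 1 reading, is counted here by each probe set. All 3 above and 5 of the 6 below were bright, whereas these shares are over all probe sets. The median change over the 25 probe sets was 0.09, -0.19 and -0.10 in the 3 comparisons, and 0.01 or less over all probe sets. For the 19 bright ones the GV to MII median was -0.08, beside -0.09 for all bright probe sets. With 1 probe set per gene, the brightest, 0 of the 10 genes passed in any comparison with limma; at an unadjusted p under 0.05 there were 1, 3 and 2, against 1432, 4084 and 4852 of all 18193 genes. Over all genes read in the same way, 2.06% were called higher and 5.90% lower from MI to MII, and 4.80% and 7.92% from GV to MII. By role, the GV to MII medians of these genes were 0.66 for the 3 fusion genes, -0.97 for the 3 fission genes and 0.07 for the 4 of mtDNA maintenance, with Mfn2 and Dnm1l apart from the others of their role. The mtDNA maintenance genes were widely spread around theirs, from -1.97 (Polg2) over -0.19 (Polg) and 0.33 (Tfam) to 2.12 (Tfb2m). The 95% confidence intervals of bright probe sets reached a median of 1.09 to each side, so with 3 arrays a stage the typical interval spanned about 2-fold in either direction.

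The partners of these genes were taken from 6 lists of 100 nuclear genes, of which 96 had a probe set with a single symbol. None of the 96 passed from GV to MI with limma, and 17 had an unadjusted p under 0.05, against 1432 of all 18193 genes. From MI to MII 6 rose and 10 fell, beside 2.06% and 5.90% of all genes. From GV to MII 12 rose and 18 fell, beside 4.80% and 7.92%. The lists were brighter, as 76 of the 96 had a stage mean of at least 100, against 8570 of all genes. Among probe sets with a mean of at least 100 over the 9 arrays, the shares were 4.29% and 12.3%, then 10.9% and 16.5%. The same shares stand beside the count of each list below. The median changes of the 96 were -0.40 and -0.51, beside -0.02 and -0.03 for all genes. Over all probe sets with a mean of at least 100 the medians were -0.06 and -0.09. The MI to MII counts depended on single arrays. The count of 6 was 3 without MI 1, 2 without MI 2, MII 1 or MII 2, and 3 without MII 3. The count of 10 was 3 without MI 1 or MI 2 and 4 without MII 3. From GV to MII, the 12 became 5 without GV 2 or MII 2, 7 without MII 1 and 4 without MII 3, and the 18 became 11 without GV 1 or MII 3 and 9 without GV 3. With a pseudocount of 1 the 6 became 0.

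Of 18 genes that work with Opa1 and the mitofusins on fusion and inner-membrane shape, 5 fell and 0 rose from MI to MII, and 2 changes were above 0. Parl, a rhomboid protease of the inner membrane, had intensities of 3333, 3182 and 2352 at MI and 619, 842 and 644 at MII, and its change was -2.05 (SE 0.20, adjusted p = 0.0024). Micos13, a subunit of the MICOS complex at cristae junctions, went from 524.2 ± 133.8 to 72.46 ± 47.95 (change -2.72, adjusted p = 0.00797). Both calls held in every fit without 1 array. Chchd6, another MICOS subunit, went from 1327.6 ± 354.5 to 92.96 ± 122.1 (change -4.29, adjusted p = 0.0243). Its call was lost without MI 1, MI 2 or MII 3 (0.0775 to 0.0851), and its second probe set changed by -2.52 (adjusted p = 0.0175). The other genes that fell were Apoo (-1.61) and Phb2 (-1.33), named here after their values were seen. Between GV and MII the same list had 5 falls and 1 rise, and a median of -1.36. Read in the same way, by its brightest probe set 1434890_at, Opa1 changed by 0.80 (limma adjusted p = 0.645). Its called rise was that of the dimmer probe set 1418768_at.

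Of 16 partners of fission, 2 fell and 0 rose from MI to MII. Mul1, an outer-membrane ubiquitin and SUMO ligase, read 254, 275 and 290 at MI and 60.7, 17.7 and 65.2 at MII (change -2.28, SE 0.36, adjusted p = 0.0125), and the call held in every fit without 1 array. Its second probe set, of mean 87.6, gave -0.11. Gdap1, an outer-membrane protein linked to fission, gave -1.34 (adjusted p = 0.0271). Without MI 1, MI 2, MII 1 or MII 2 its adjusted p was 0.0666 to 0.0954, with a pseudocount of 1 it was 0.157, and its other bright probe sets gave 0.20 and 0.15.

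Of 21 genes of mtDNA replication and the nucleoid, 2 rose and 1 fell from MI to MII. Dna2, a helicase and nuclease of mitochondria and nucleus, read 421, 360.0 and 208 at MI and 1181, 1222 and 1498 at MII (change 1.98, SE 0.32, adjusted p = 0.0131). The call held without each array in turn, and was lost with a pseudocount of 1 (0.0541). Dguok, which salvages purine deoxynucleosides for mtDNA synthesis, went from 385.4 ± 102.8 to 1286.9 ± 115.7 (change 1.73, adjusted p = 0.0374). Its call was lost without GV 1 or without any 1 of the MI or MII arrays (0.0614 to 0.11), and with a pseudocount of 1 (0.104). Ssbp1, the single-strand binding protein of mtDNA, went from 1356.1 ± 145.7 to 93.22 ± 122.3 (change -4.37, adjusted p = 0.0218). That call was lost without MI 1, MI 2, MI 3 or MII 3 (0.0578 to 0.0773), and its other probe sets gave -1.79 to 1.35.

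Of 18 genes of mitochondrial transcription and RNA handling, the partners of Tfam and Tfb2m, 2 rose and 2 fell from MI to MII. Polrmt, the mitochondrial RNA polymerase, read 965, 356 and 240 at MI and 25.0, 103 and 6.76 at MII (change -3.24, SE 0.68, adjusted p = 0.0358). The call was lost without any 1 of GV 1, GV 2, GV 3, MI 1, MI 2, MII 1 or MII 3 (0.0553 to 0.103), and with a pseudocount of 64 (0.0501). Its second bright probe set, of mean 146.8, gave -1.01 (adjusted p = 0.558). Slirp, an RNA-binding partner of Lrpprc, gave -3.61 (adjusted p = 0.0318), lost without GV 1, MI 1, MI 2, MII 2 or MII 3 (0.0529 to 0.108). Mterf1a, of the family of mitochondrial termination factors, went from 44.88 ± 12.7 to 233.3 ± 118.6 (change 1.95, adjusted p = 0.0372), lost without GV 3, any 1 MI array, MII 1 or MII 2 (0.0613 to 0.0994), and with a pseudocount of 1 (0.0846). Supv3l1, a mitochondrial RNA helicase, was the other gene that rose (change 1.76, adjusted p = 0.01) and was named after its values were seen. Tfb2m and the polymerase it works with thus had changes of opposite sign, 2.14 and -3.24, of which only that of Polrmt passed, and by 1 of its 2 probe sets; the difference between them was not tested.

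Of 11 nuclear regulators of mitochondrial biogenesis, none passed from MI to MII with limma. An unadjusted limma p under 0.05 was seen for 2 of the 11, against 4084 of all 18193 genes. The smallest p was that of Sirt1, a deacetylase that acts on Ppargc1a, whose intensities were 83.8, 140 and 3.97 at MI and 675, 1218 and 216 at MII (change 3.11, SE 0.83, adjusted p = 0.0839). It passed after quantile normalization (0.0467) and without the lowest 40% of probe sets (0.0383). Of 12 genes of mitochondrial transport and mitophagy, 2 rose and 0 fell. Rhot1, the Miro GTPase that links mitochondria to motors, gave 1.18 (adjusted p = 0.0242), and Trak1, the motor adaptor it binds, gave 1.21 (adjusted p = 0.0325). The Rhot1 call was lost without MI 2 or any 1 MII array (0.0596 to 0.079), and the Trak1 call without GV 1, MI 1, MI 2 or any 1 MII array (0.0548 to 0.0959). Both were also lost without the lowest 40% of probe sets (0.0582 and 0.0614) and with a pseudocount of 1 (0.203 and 0.2). Other Trak1 probe sets gave -1.37 to 0.70.

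**Figure D3:**
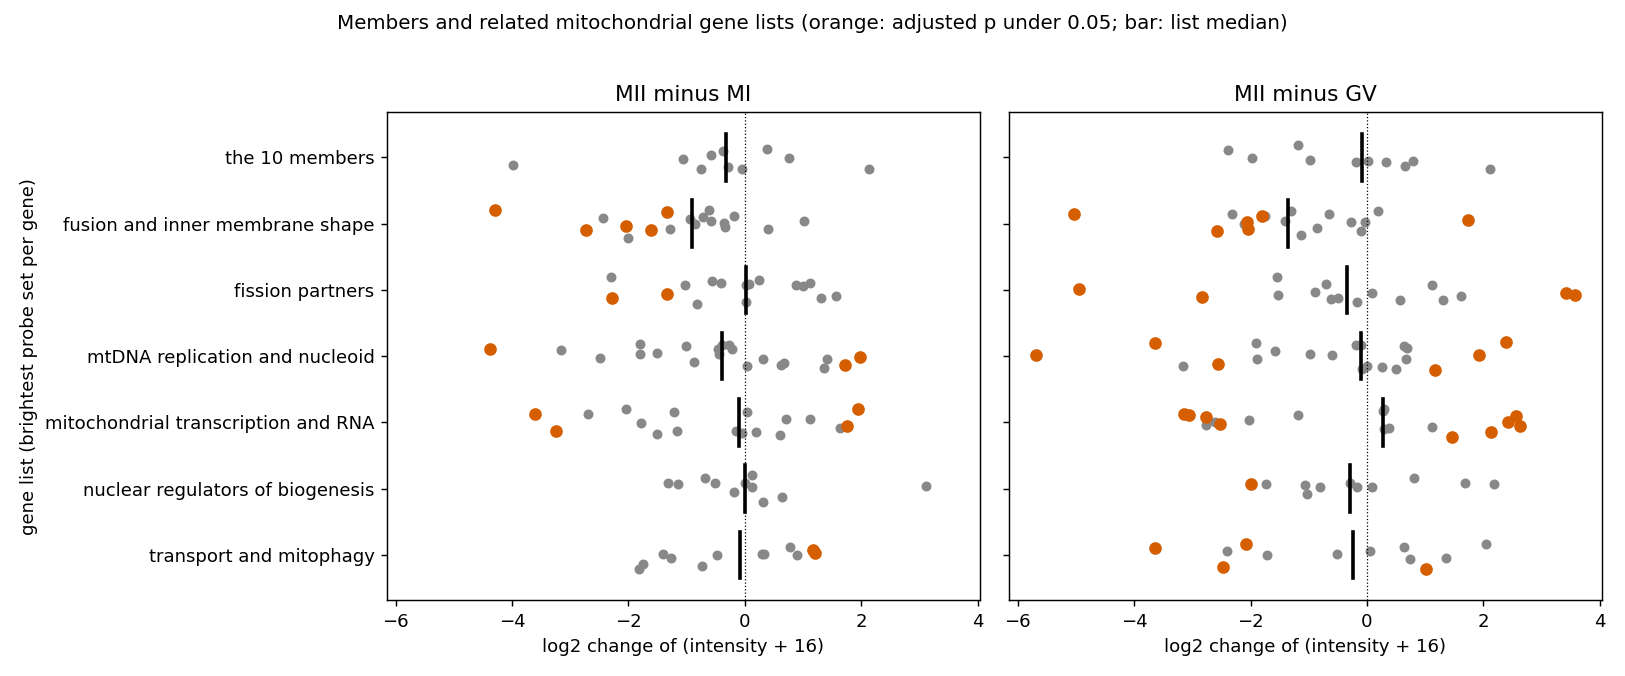
Log2 change of intensity + 16 for the brightest probe set of each gene, from MI to MII and from GV to MII, in the 10 genes and the 6 lists of partners. Each point is a gene, orange marks an adjusted p under 0.05, and the bar is the list's median; points are spread vertically for legibility only. The list of fusion and inner-membrane shape has medians of -0.91 and -1.36, and none of the 10 genes is orange when read by its brightest probe set.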

How the data were processed

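Polysome-bound mRNA of mouse oocytes was reverse-transcribed, linearly amplified and labelled with biotin, per the labels' protocols. The deposited table gives 1 intensity on a linear scale per probe set and array for 9 arrays, as the authors made it. How probes were summarised, background-corrected and scaled is not given in the sources used here, and the table holds no detection calls. Of 45101 probe sets, 64 controls were left out; 34945 of the rest had 1 gene symbol in the platform annotation, 932 several and 9160 none. Values were taken as log2(intensity + 16) without a filter. One model with 3 stage means was fitted over all 45037 probe sets using limma 3.58.1 (lmFit, eBayes) under R 4.3.3, with two-sided tests and Benjamini-Hochberg adjustment over all of them. A depth in reads does not apply to arrays, and the number of arrays sets the precision. Where a gene is counted once, its brightest probe set, by the mean of all 9 arrays, stands for it. The genes, lists and tests were chosen with earlier results of these data known. Of each list of partners, the rule named up to 3 genes with the largest MI to MII change among those that passed with a mean of at least 100 in the higher stage, or the 1 with the smallest p. It also named, for Mfn2 and Tfb2m, the members with the largest MI to MII change, the 3 genes of most similar course. Of the lists, 4 nuclear genes and 15 transcripts encoded by mtDNA matched no probe set with a single symbol and were not analysed here. Alternatives were other pseudocounts (1 and 64), leaving out the 40% of probe sets with the lowest mean, median-centred, quantile-normalized and 95th-percentile-scaled arrays, a fit over genes, the replicate number as a block, and leaving out each array.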

Additional observations from a re-analysis of the deposited data

How the results depend on the processing

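The member counts were of 0 to 2 probe sets under every setting. With a pseudocount of 1, the 1 probe set called higher from GV to MII became 0, and the 2 called by the F test became 1. Without the lowest 40% of probe sets the F test also called 1. Leaving out 1 array gave 1 to 2 called higher and 1 to 2 called lower from GV to MII, 0 to 1 lower from MI to MII and 0 to 2 by the F test. No member was called from GV to MI under any setting run. Leaving out 1 array gave 2 to 6 partners called higher and 3 to 12 lower from MI to MII, and 4 to 11 higher and 9 to 21 lower from GV to MII; a pseudocount of 1 gave 0 partners higher from MI to MII. Over all probe sets, 707 were called higher from MI to MII, 222 with a pseudocount of 1, 1293 after quantile normalization, 1243 with equal 95th percentiles, and 300 to 660 without 1 array, fewest without MI 2 and MII 3 (301). The 1736 called lower were 936 to 1601 without 1 array, fewest without MI 2. From GV to MII, the 1690 called higher were 1005 with a pseudocount of 1 and 1011 to 1962 without 1 array. The share of called probe sets that were higher was 28.9% from MI to MII and 43.8% after quantile normalization, 43.5% with equal 95th percentiles and 15.1% with a pseudocount of 1. For GV to MII it was 41.8%, and 51.1% after quantile normalization (2264 higher, 2169 lower) and 52.5% with equal 95th percentiles (2337 and 2117). Over all probe sets from GV to MI, the count of 0 was 1 with a pseudocount of 1, 2 without the lowest 40% and 2 without MI 1. Of 1218 single values of members under alternatives, 1192 kept their side of the threshold and stayed within the spread, 7 lost and 6 gained a call, 13 moved further, and none of the called values reversed. Without the fits that left out 1 array, 11 of 543 values changed sign; of the 675 values in those fits 39 did, none of them called with all arrays. They include the GV to MI changes of Mfn2 1448131_at (1.60, and -0.08 without MI 2) and Dnm1l 1452638_s_at (-0.65, and 0.04 without GV 3).

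The labels do not say that a replicate number marks a shared batch. Deviations from the stage means of same-numbered arrays correlated at -0.01 to 0.21 over 13157 bright probe sets, and those of different-numbered arrays at -0.27 to 0.12. Not every same-numbered pair exceeded 0.1, so the numbers were not taken to pair the samples, although the pairs numbered 1 and 3 were all positive (0.07 to 0.21). With the replicate number as a block, member counts were the same, 1 lower from MI to MII, 1 higher and 1 lower from GV to MII and 2 by the F test, and 690 of all probe sets were called higher from MI to MII. The block ended the MI to MII calls of Gdap1 (adjusted p = 0.0616), Polrmt (0.0643) and Mterf1a (0.0555) in limma, and Sirt1 gained one (0.0296). The precision limits all of these results: among bright probe sets the smallest half-width of a 95% confidence interval of a member was 0.52 on the log2 scale.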
